A study of Arabidopsis thaliana with 16 samples.

Results

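Aquaporins are membrane channels that let water, and in some members small uncharged solutes, pass along a gradient. In Arabidopsis the plasma membrane intrinsic proteins (PIP1 and PIP2) sit mainly at the cell surface, the tonoplast intrinsic proteins (TIP) mainly in the vacuolar membrane, and the small basic intrinsic proteins (SIP) in the endoplasmic reticulum, while several nodulin26-like intrinsic proteins (NIP) carry boric acid or arsenite. PIP1 proteins reach the plasma membrane in company with PIP2 partners, and TIPs make the vacuolar membrane highly permeable to water. The family was taken as 35 loci, of which 5 are PIP1, 8 PIP2, 10 TIP, 9 NIP and 3 SIP genes. In the names RefSeq pairs with the numbered ones, PIP1;1 to PIP1;5 are PIP1A, PIP1B, PIP1C, PIP1E and PIP1D in turn, and PIP2;1 to PIP2;8 are PIP2A, PIP2B, RD28, PIP2F, PIP2D, PIP2E, PIP3 and PIP3B. TIP1;1 to TIP1;3 are GAMMA-TIP, GAMMA-TIP2 and GAMMA-TIP3, TIP2;1 to TIP2;3 are DELTA-TIP, DELTA-TIP2 and DELTA-TIP3, and TIP3;1 and TIP3;2 are ALPHA-TIP and BETA-TIP. NIP1;1 and NIP1;2 are NLM1 and NLM2, and SIP1;1, SIP1;2 and SIP2;1 are SIP1A, SIP1B and SIP2. These second names are used here, and figures carry both. All 35 were found in the array annotation, on 32 of the 22687 probe sets tested (22810 are on the array). PIP2B and RD28 share a probe set, as do PIP3 and PIP3B, and the NIP genes At5g37810 and At5g37820, so each of these 3 pairs gave 1 value that cannot be divided between its genes. The probe sets of At2g34390 (NIP2;1) and At1g31885 also match a locus outside the family (At2g29870 and At2g21020).

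The samples were undifferentiated callus cells of Arabidopsis Col-0, started from hypocotyls and kept as suspension cultures before plating, which grew in the dark in closed Biological Research in Canisters (BRIC) hardware. FHsf denotes HSFA2 KO cells in spaceflight and GHsf the same genotype on the ground, and FWt and GWt denote WT cells in spaceflight and on the ground. HSFA2 KO is the T-DNA insertion line SALK_008978C, which lacks a heat shock transcription factor, and WT is unmodified Col-0. All cells were fixed in RNAlater on day 10, the ground plates ran 48 h behind those in orbit, and the labels give an age of 14 days for every sample. Each environment had 3 HSFA2 KO arrays and 5 WT arrays. By their titles the WT arrays came from 4 plates, since plate A1 has arrays titled Rep1 and Rep2, which were averaged. The study's methods instead count 5 WT plates per environment as biological replicates, and its results count 4 for WT ground cells. The titles name no array run. Arrays titled Rep2 are called second-run here and all others first-run. Second-run arrays were those of plate A1 in each WT group, B3-2 in FHsf, and B3-2 and B5-2 in GHsf. Run and group therefore cannot be fully told apart. Each genotype was a single culture line, and every HSFA2 KO plate sat in BRIC B whereas WT plates sat in BRIC A and B. Genotype, culture line and, in part, canister therefore cannot be told apart. The GHsf arrays B3 and B3-2 carry the same plate number in their titles but different positions in their source names, and they may be 1 plate. If so, p-values that use GHsf rest on fewer plates than the n given. An exact permutation p of 0.0286 in GHsf : GWt could then not be reached. P-values measure the spread between these plates and arrays of 1 flight.

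The probe set of HSFA2 (At2g26150), the disrupted gene, gave a mean MAS5 signal of 82.0 in FHsf and 51.7 in GHsf, against 7334 in FWt and 4338 in GWt. Its log2 fold change was −6.83 in FHsf : FWt and −6.94 in GHsf : GWt (limma adjusted p of 0.0415 and 0.0353). MAS5 signals are scaled so that every array has the same trimmed mean, and array medians still ran from 68.7 to 123. The log2 ratio of the 3′ to the 5′ actin control probe sets ran from 3.95 to 4.88 on HSFA2 KO arrays and from 4.31 to 5.35 on WT arrays. Of 9 callus markers 8 had a probe set and 4 of these, WIND1, LBD16, PLT1 and SCR, were over the median signal. The summed signal of all 8 was 2446 to 3468 in FHsf and 2150 to 5306 in GHsf, against 2679 to 4300 in FWt and 4575 to 7767 in GWt. This sum mostly follows WIND1, with means of 2029 in FHsf, 1873 in GHsf, 2558 in FWt and 5700 in GWt. It is therefore no measure of the 8 markers together. In GHsf : GWt WIND1, a regulator of dedifferentiation, was called lower (−1.86) and LBD16, a regulator of callus formation, higher (1.48). Over the median signal were also 1 of 6 leaf markers, 0 of 5 seed, 0 of 4 pollen and 2 of 4 root markers. The part of marker levels in the values given for aquaporins was not tested. In bulk samples fewer cells of a type and less RNA per cell cannot be told apart.

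Since MAS5 signals of different probe sets cannot be set against each other as amounts, the level of a member served only to judge its precision. In 16 of the 32 probe sets the geometric mean signal over all 14 plates and arrays was above 59.4, the median of all tested probe sets. All 5 PIP1 probe sets, 4 of 6 PIP2, 2 of 10 TIP, 3 of 8 NIP and 2 of 3 SIP were among them. The residual SD within groups, on the log2 scale, had a median of 0.467 in these 16 probe sets and of 1.502 in the other 16. PIP1B, a plasma membrane channel for water and CO2, varied little (residual SD 0.249), as did NLM2, a transporter of aluminium malate (0.246), whereas GAMMA-TIP2, a vacuolar water channel, had the widest spread (2.06). Repeat arrays told the same: over plate A1 of FWt and of GWt, each arrayed in both runs, the log2 signals of a probe set over the median signal differed by a median of 0.485, and those of a probe set under it by 1.24. PIP2D shows what this means for single values. On plate A1 of FWt its signal was 29.5 in the first run and 187 in the second.

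**Figure D1:**
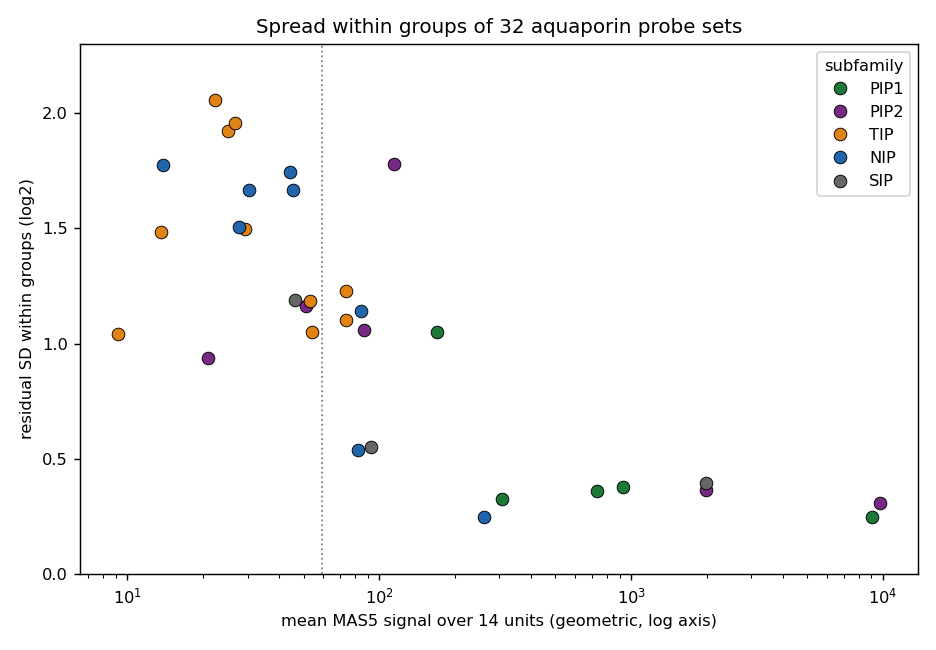
Residual SD of the log2 signal within the 4 groups (vertical axis) against the geometric mean MAS5 signal over 14 plates and arrays (horizontal log axis), 1 point for each of 32 aquaporin probe sets, coloured by subfamily. The dotted line is the median of all tested probe sets (59.4). PIP1 points lie to its right, most of them with an SD under 0.4, and most TIP points lie to its left with an SD above 1.

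The methods name a p limit of 0.01 beside a Benjamini-Hochberg correction, and read as an adjusted limit it is passed by 0 aquaporin probe sets in any comparison. For a description of the members, differences were called at an unadjusted limma p under 0.01 together with a log2 fold change above 1 or below −1. Of the 32 aquaporin probe sets 2 were called in FHsf : GHsf, where 1.51% of all tested probe sets were called, and these were GAMMA-TIP (higher) and PIP2F (lower). In FWt : GWt 0 were called (0.807% of all), and 0 had an unadjusted limma p under 0.05 (4.39% of all). Between genotypes, 2 were called lower in FHsf : FWt (0.573% of all were called lower and 1.75% in either direction), the shared probe sets of PIP2B and RD28 and of PIP3 and PIP3B. In GHsf : GWt 1 was called, PIP2F, which was higher (2.46% of all were called). With p-values adjusted over all 22687 probe sets 0 members were under 0.05 in any comparison by limma. The smallest adjusted p of a member was 0.531 in FHsf : GHsf, 1.00 in FWt : GWt, 0.329 in FHsf : FWt and 0.187 in GHsf : GWt. The values of the groups did not overlap for 7 members in FHsf : GHsf (13.0% of all tested probe sets), 0 in FWt : GWt (3.07%), 5 in FHsf : FWt (10.5%) and 3 in GHsf : GWt (13.2%). No difference between the family and the rest of the array was tested.

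The median log2 fold change of the 32 probe sets was 0.28 in FHsf : GHsf and 0.00 in FWt : GWt (−0.07 and −0.03 over all tested probe sets), with 18 and 16 members above 0. It was 0.10 in FHsf : FWt and −0.29 in GHsf : GWt (0.07 and 0.12 over all). In GHsf : GWt 21 of 32 members lay below 0, and 43.3% of all probe sets did.

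**Figure D2:**
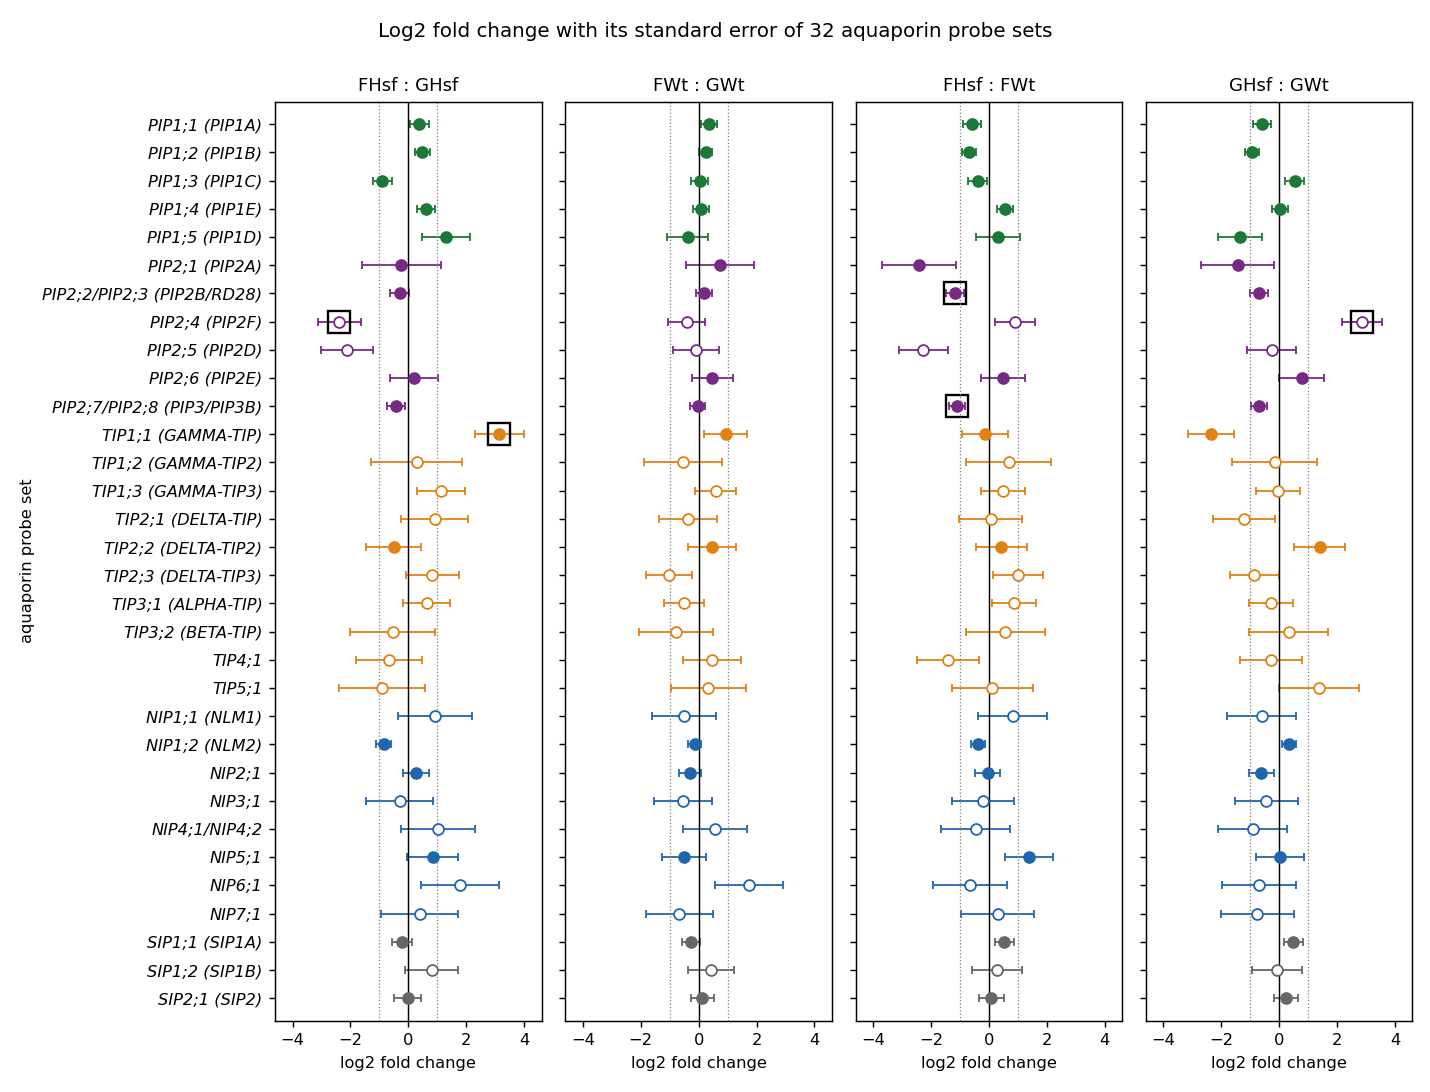
Log2 fold change (horizontal axis) with its standard error from limma for each of 32 aquaporin probe sets (rows, coloured by subfamily) in FHsf : GHsf, FWt : GWt, FHsf : FWt and GHsf : GWt, with filled points for probe sets over the median signal and open points for the rest. Squares mark the 5 called differences, and dotted lines mark a log2 fold change of 1 in size. Error bars are widest among TIP and NIP probe sets, most of which lie under the median signal.

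The PIP1 and PIP2 genes over the median signal mostly lay lower in the HSFA2 KO than in WT. Of these 9 probe sets 6 lay below 0 in FHsf : FWt, with a median log2 fold change of −0.57, and 6 in GHsf : GWt, with a median of −0.69. All tested probe sets over the median signal had medians of 0.04 and 0.06, and 46.3% and 45.3% of them lay below 0. The 6 below 0 included PIP1A, PIP1B, PIP2A and both shared PIP2 probe sets in each environment, with PIP1C as the sixth in FHsf : FWt and PIP1D in GHsf : GWt. Both comparisons are descriptions of 9 probe sets, since the list itself was given no test. Among all 16 aquaporin probe sets over the median signal, 9 lay below 0 in FHsf : FWt and 8 in GHsf : GWt.

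The probe set of PIP2B (At2g37170), which helps to set the hydraulic conductivity of roots, and of RD28 (At2g37180), named for its response to desiccation, lies at chromosome 2, 15617779 to 15618937, in the array annotation, whose genome build is not given in the sources used here. That annotation gives this single interval for both genes. The signals of the probe set were 1395, 964 and 1380 in FHsf, against 2350, 3213, 2387 and 3413 in FWt. Every FHsf value was below every FWt value, and the means were 1246 ± 245 (SD, n = 3) and 2841 ± 551 (SD, n = 4). The log2 fold change was −1.19 ± 0.31 (SE, limma p = 0.0026, adjusted p = 0.339), and a two-sided exact permutation test over plates and arrays gave p = 0.0286, the smallest that 3 against 4 allows. On the ground the signals were 2150, 1150 and 1402 in GHsf, against 2552, 3152, 2769 and 1649 in GWt. These groups overlapped, through array B3 of GHsf and plate B2 of GWt, and the difference of −0.70 ± 0.31 was not called (limma p = 0.045, adjusted p = 0.449, exact permutation p = 0.114).

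The shared probe set of PIP3 (At4g35100), a water channel of the plasma membrane, and its close relative PIP3B (At2g16850), is placed at chromosome 2, 7301647 to 7303180, by the same annotation. This interval is on the chromosome of PIP3B, whereas PIP3 lies on chromosome 4. The probe set gave 6504, 4613 and 6885 in FHsf, against 12130, 13459, 9391 and 16354 in FWt. The groups lay apart, and the log2 fold change was −1.09 ± 0.28 (limma p = 0.0022, adjusted p = 0.329, exact permutation p = 0.0286). On the ground it gave 8762, 6652 and 8680 in GHsf, against 13755, 16887, 11921 and 9797 in GWt. Here too no GHsf value reached the GWt values, but the difference of −0.69 ± 0.28 was not called (limma p = 0.031, adjusted p = 0.407, exact permutation p = 0.0571).

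PIP1B (At2g45960), described above as a channel for water and CO2, gave 7776, 9008 and 6582 in FHsf, against 11558, 11315, 15865 and 11752 in FWt. On the ground it gave 4738, 6193 and 5732 in GHsf, against 8949, 14301, 10419 and 9323 in GWt. In both environments every HSFA2 KO value was below every WT value. The log2 fold changes were −0.69 ± 0.25 in FHsf : FWt (limma p = 0.016, adjusted p = 0.503, exact permutation p = 0.0286) and −0.94 ± 0.25 in GHsf : GWt (limma p = 0.0028, adjusted p = 0.224, exact permutation p = 0.0286), and neither passed the limit on the fold change. Of all aquaporin probe sets, 4 in FHsf : FWt and 2 in GHsf : GWt had every HSFA2 KO value below every WT value, which was so for 4.76% and 5.26% of all tested probe sets. PIP2D, described further on, was the fourth in FHsf : FWt.

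With the WT plates of BRIC B alone (B1 and B2), all cells compared shared a canister, but fewer plates were left. The log2 fold change in FHsf : FWt was then −1.22 for PIP2B and RD28 and −1.07 for PIP3 and PIP3B. With all WT plates these values were −1.19 and −1.09. The limma p-values within BRIC B were 0.0219 and 0.0222, so neither call was kept. The part of the smaller number of plates in this was not tested. In GHsf : GWt the values within BRIC B were −0.50, −0.44 and, for PIP1B, −0.84 (limma p of 0.275, 0.274 and 0.0298).

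None of the remaining PIP1 genes was called. PIP1A (At3g61430), another plasma membrane channel, had a log2 fold change of −0.57 in FHsf : FWt and of −0.59 in GHsf : GWt (limma p of 0.088 and 0.080). PIP1C (At1g01620) gave 810, 477 and 881 in FHsf, against 1862, 1225 and 955 in GHsf. The groups did not overlap, and the log2 fold change of −0.89 ± 0.34 was not called (limma p = 0.023, exact permutation p = 0.10). PIP1E (At4g00430), which moves hydrogen peroxide across the plasma membrane in Arabidopsis immunity, gave 0.56 in FHsf : FWt and 0.61 in FHsf : GHsf (limma p of 0.078 and 0.071). PIP1D (At4g23400) had the largest log2 fold changes of the subfamily, 1.301 ± 0.81 in FHsf : GHsf and −1.35 ± 0.76 in GHsf : GWt (limma adjusted p of 0.805 and 0.561). It gave 245, 184 and 228 in FHsf and 140, 289 and 16.98 in GHsf, whereas it gave 150, 284, 137 and 157 in FWt and 306, 277, 255 and 118 in GWt. Array B5-2 of GHsf was far below all other values.

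PIP2F (At5g60660, chromosome 5, 24375673 to 24376939), a root plasma membrane channel that also passes hydrogen peroxide, was high in 1 of the 4 groups. It gave 8.69, 33.5 and 24.7 in FHsf and 138, 99.4 and 74.0 in GHsf, whereas it gave 34.1, 4.61, 5.38 and 13.6 in FWt and 16.03, 8.47, 12.4 and 21.3 in GWt. The value of 34.1 on plate A1 of FWt averages arrays that gave 16.4 and 70.8. All GHsf values were above 59.4, the median of mean signals over all tested probe sets. All values of the other groups, with plate A1 averaged, were below it. On arrays B3-2 and B5-2 of GHsf the signal was below the array's own median, 112 and 100. No values overlapped between GHsf and either FHsf or GWt. The log2 fold change was 2.87 ± 0.69 in GHsf : GWt (limma p = 0.0014, adjusted p = 0.187, exact permutation p = 0.0286). In FHsf : GHsf it was −2.38 ± 0.73 (limma p = 0.0074, adjusted p = 0.591), where the exact permutation p of 0.10 is the smallest that 3 against 3 allows. With the B3 arrays of GHsf, which may be 1 plate, averaged, that call was lost (−2.27, limma adjusted p = 0.873), and the GHsf : GWt value was 2.76 and still called. In FHsf : FWt it was 0.90 ± 0.69 (limma p = 0.216, exact permutation p = 0.40), and in FWt : GWt −0.41 ± 0.64 (limma p = 0.533, exact permutation p = 0.60). An offset of 32 added to every signal before log2 brought the values down to 1.52 in GHsf : GWt and −1.32 in FHsf : GHsf, both still called. Within BRIC B the GHsf : GWt value was 2.63 (limma adjusted p = 0.401) and was still called, and with both B3 arrays of GHsf left out, which leaves 1 GHsf array, it was 2.43 and no longer called (limma adjusted p = 0.605). Summed signals of other marker lists, which are weighted toward the brightest probe sets of each list, also differed between groups. Of the leaf markers PSBO1 was called lower in FHsf : GHsf (−2.89) and RBCS1A higher in GHsf : GWt (2.57), and the summed signal of the 6 leaf markers was 338 to 536 in FHsf and 399 to 781 in GHsf, against 285 to 506 in FWt and 313 to 444 in GWt. RCA, the only leaf marker over the median signal, had a log2 fold change of −0.54 in GHsf : GWt, with no overlap. Its mean was 207 in FHsf and 164 in GHsf. The summed signal of the 5 seed markers was 136 to 270 in FHsf and 265 to 407 in GHsf, against 48.6 to 217 in FWt and 124 to 257 in GWt, so that GHsf lay above both WT groups, and none of the 5 was called. Among them LEA76, a late embryogenesis abundant protein gene, averaged 51.6 in FHsf and 152 in GHsf, against 20.7 in FWt and 56.7 in GWt. The 4 root markers summed to 183 to 482 in FHsf and 237 to 333 in GHsf, against 156 to 278 in FWt and 189 to 227 in GWt, and the 4 pollen markers to 77.2 to 493, 42.6 to 158, 77.8 to 282 and 94.3 to 295 in these groups. The part of other cell types in the PIP2F values was not tested.

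PIP2D (At3g54820), a plasma membrane aquaporin induced by drought in Arabidopsis leaves, was low in a different group. It gave 21.8, 12.5 and 12.4 in FHsf and 33.9, 151 and 52.3 in GHsf, whereas it gave 74.3, 71.5, 129 and 39.9 in FWt and 57.5, 183, 15.6 and 215 in GWt. The FHsf values were below all GHsf and all FWt values. The log2 fold changes of −2.11 ± 0.90 in FHsf : GHsf and −2.27 ± 0.84 in FHsf : FWt missed the p limit (limma p of 0.038 and 0.020). In the fit without plate B1 of GWt, a plate of neither comparison, the fold changes were the same and both were called (limma p of 0.00936 and 0.00406).

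The remaining PIP2 genes were PIP2A (At3g53420), the main PIP2 water channel studied in guard cells and leaf veins, and PIP2E (At2g39010). PIP2A gave 192, 88.9 and 6.85 in FHsf, against 177, 231, 316 and 351 in FWt, and 190, 145 and 7.08 in GHsf, against 217, 243, 43.9 and 264 in GWt. Array B5 of FHsf and array B5-2 of GHsf were far below the others of their groups, so the log2 fold changes of −2.41 ± 1.27 in FHsf : FWt and −1.44 ± 1.27 in GHsf : GWt were within their spread (limma p of 0.083 and 0.280). PIP2E had no limma p under 0.337 in any of the 4 comparisons.

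**Figure D3:**
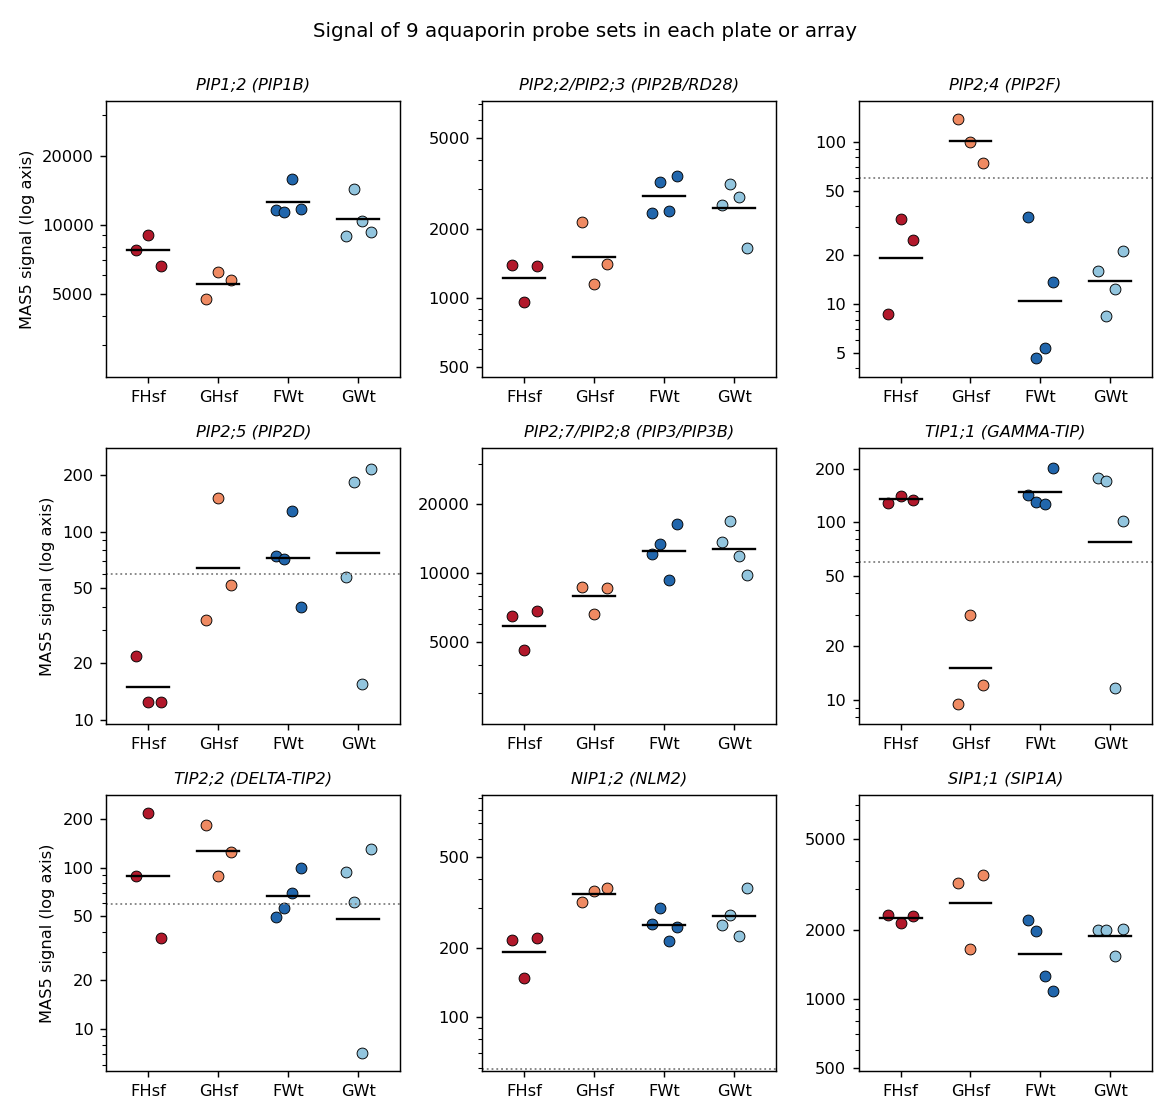
MAS5 signal (vertical log axis, with the same minimum range in every panel) of 9 aquaporin probe sets in each plate or array of FHsf, GHsf, FWt and GWt. Points are plates of WT cells or arrays of HSFA2 KO cells, bars are geometric means, and the dotted line is the median of all tested probe sets (59.4, drawn where it falls within the panel). PIP1B and both shared PIP2 probe sets have lower means in FHsf and GHsf than in FWt and GWt, with GHsf and GWt points of PIP2B and RD28 overlapping, PIP2F lies high in GHsf, and GAMMA-TIP lies low in GHsf and on plate B1 of GWt.

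GAMMA-TIP (At2g36830, chromosome 2, 15445490 to 15446336), a vacuolar water channel of elongating cells, was low in GHsf. Its signals were 128, 141 and 134 in FHsf, against 9.54, 30.2 and 12.1 in GHsf. The groups lay far apart, with means of 134 ± 6.09 (SD, n = 3) and 17.3 ± 11.3 (SD, n = 3), and the log2 fold change was 3.15 ± 0.85 (limma p = 0.0033, adjusted p = 0.531, exact permutation p = 0.10, the smallest possible). The GHsf signals lay below or within the range of the arrays' lower quartiles, 15.9 to 33.1, where a probe set is not shown to be above background, so the size of this fold change is uncertain. Most PIP2F values in FHsf, FWt and GWt have the same limit. In WT cells it gave 143, 130, 126 and 202 in FWt, against 178, 171, 11.7 and 101 in GWt. These groups overlapped, with a log2 fold change of 0.93 ± 0.74 (limma p = 0.233, exact permutation p = 0.457), and plate B1 of GWt stood at the level of the GHsf arrays. In GHsf : GWt the log2 fold change was −2.35 ± 0.80 (limma p = 0.0126, adjusted p = 0.323, exact permutation p = 0.114), and in FHsf : FWt it was −0.14 ± 0.80 (limma p = 0.868, exact permutation p = 0.743).

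The GAMMA-TIP values depended on plate B1 of GWt. Without it the log2 fold change in GHsf : GWt was −3.26 and was called (limma adjusted p = 0.0628), while that in FWt : GWt was 0.02. Within BRIC B the GHsf : GWt value was −1.18 and was not called (limma adjusted p = 0.796), while the FHsf : GHsf value was 3.15 and was called. The call in FHsf : GHsf was lost without array B3 of GHsf (log2 fold change 2.81, limma adjusted p = 0.666), without array B5-2 of GHsf (2.98, adjusted p = 0.587) and without array B4 of FHsf (3.11, adjusted p = 0.607). With the offset of 32 before log2 the FHsf : GHsf value was 1.78, still called. With the B3 arrays of GHsf averaged, that value was 3.23 and was still called (limma adjusted p = 0.787). In WT cells of both environments the plate at position B1, a different plate in each, was often the lowest of its group: it held the lowest value for 16 of 32 aquaporin probe sets in FWt and for 15 in GWt, and for 30.5% and 23.5% of all tested probe sets.

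None of the other 9 TIP probe sets was called in any comparison or had a limma p under 0.05. DELTA-TIP2 (At4g17340), a vacuolar channel of roots, gave 88.3, 217 and 36.6 in FHsf and 184, 88.4 and 124 in GHsf, whereas it gave 49.7, 55.9, 69.6 and 99.7 in FWt and 93.7, 61.0, 7.16 and 130 in GWt. All groups overlapped, and its log2 fold change of 1.40 ± 0.89 in GHsf : GWt had a limma p of 0.142. DELTA-TIP (At3g16240) and DELTA-TIP3 (At5g47450), which pass ammonia as well as water, had log2 fold changes between −1.22 and 1.00 in the 4 comparisons. The FHsf values of DELTA-TIP3, 55.7 to 119, lay just above those of FWt, 20.8 to 55.4, without a call (limma p = 0.264, exact permutation p = 0.0571). The pollen genes GAMMA-TIP3 and TIP5;1, the seed genes ALPHA-TIP and BETA-TIP, and GAMMA-TIP2 and TIP4;1 all had mean signals under 59.4. The largest log2 fold change among these 6 was −1.42 ± 1.07, of TIP4;1 in FHsf : FWt (limma p = 0.207, exact permutation p = 0.286).

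Among NIP genes NLM2 (At4g18910) had the least spread. It gave 216, 148 and 221 in FHsf, against 317, 354 and 366 in GHsf, and 254, 298, 214 and 246 in FWt, against 252, 278, 226 and 364 in GWt. No FHsf value reached the GHsf values, and the log2 fold change of −0.85 ± 0.26 had a limma p of 0.0076 (adjusted p = 0.591) but did not pass the limit on the fold change. In WT cells the values overlapped and the log2 fold change was −0.13 ± 0.23 (limma p = 0.575, exact permutation p = 0.514). The boric acid channels NIP5;1 (At4g10380), of roots, and NIP6;1 (At1g80760), of shoot nodes, had the largest positive values of the subfamily. At4g10380 gave 1.38 ± 0.83 in FHsf : FWt (limma p = 0.122, exact permutation p = 0.257), and At1g80760 gave 1.78 ± 1.36 in FHsf : GHsf and 1.74 ± 1.18 in FWt : GWt (limma p of 0.215 and 0.164). At1g80760 ranged from 4.58 to 130 within FHsf and from 6.51 to 227 within FWt, against 4.34 to 7.47 in GHsf and 3.74 to 14.8 in GWt, so the groups overlapped. The remaining probe sets, of NLM1, At2g34390, At1g31885, At5g37810 with At5g37820, and At3g06100, had no limma p under 0.170 in the 4 comparisons.

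SIP1A (At3g04090), a water channel of the endoplasmic reticulum, gave 2331, 2138 and 2293 in FHsf and 3186, 1641 and 3462 in GHsf, whereas it gave 2211, 1967, 1260 and 1086 in FWt and 2003, 1987, 1532 and 2013 in GWt. Its log2 fold changes of 0.53 ± 0.33 in FHsf : FWt and 0.49 ± 0.33 in GHsf : GWt were not called (limma p of 0.134 and 0.163). SIP1B and SIP2 had log2 fold changes between −0.09 and 0.80, with no limma p under 0.401.

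Whether spaceflight acted differently on the genotypes was asked with the interaction, the log2 fold change of FHsf : GHsf minus that of FWt : GWt. It was called for 0 of 32 probe sets, and 0 had an unadjusted limma p under 0.05 (1.02% and 4.74% of all tested probe sets). The values farthest from 0 were 2.22 ± 1.13 in GAMMA-TIP, −2.01 ± 1.19 in PIP2D and −1.97 ± 0.97 in PIP2F, each with a limma adjusted p of 0.999. All 6 PIP2 probe sets lay below 0, with a median of −0.73, while 4 of 5 PIP1, 7 of 10 TIP, 7 of 8 NIP and 2 of 3 SIP lay above 0, with medians of 0.24, 0.68, 0.51 and 0.04. Of all tested probe sets 48.4% lay above 0, with a median of −0.03. These values come from comparisons of the same plates and were not tested as lists. GAMMA-TIP was called without plate B1 of GWt (3.12, limma adjusted p = 0.556), PIP2F with the offset of 32 (−1.30, adjusted p = 0.842), and PIP1D without both B3 arrays of GHsf.

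Of 16 related genes, which cover aquaporin trafficking and turnover, the proton pumps of the same membranes and boron exporters, 1 was called in GHsf : GWt (2.46% of all tested probe sets) and 0 in FHsf : GHsf, FWt : GWt and FHsf : FWt (1.51%, 0.807% and 1.75%). BOR2 (At3g62270), a boron exporter, gave 132, 131 and 77.0 in GHsf, against 17.4, 6.75, 11.7 and 60.4 in GWt, and the log2 fold change was 2.70 ± 0.81 (limma p = 0.0061, adjusted p = 0.279, exact permutation p = 0.0571). RMA1 (At4g03510), an E3 ubiquitin ligase of the endoplasmic reticulum whose pepper relative marks PIP2A for degradation, gave 10936, 11721 and 13498 in FHsf, against 4978, 8702 and 6087 in GHsf. The groups lay apart, and the log2 fold change of 0.90 ± 0.31 did not pass the limits (limma p = 0.013, exact permutation p = 0.10). In GHsf : GWt the log2 fold change of RMA1 was −0.73, and those of RMA2 and RMA3 in the same list were −1.40 and −0.90. None of these was called (limma p of 0.028, 0.287 and 0.017). The syntaxin SYP121, which delivers PIP2 proteins to the plasma membrane, had log2 fold changes between −0.24 and 0.44. The vacuolar pyrophosphatase AVP1, which shares its membrane with the TIPs, had values between −0.07 and 0.03, and the plasma membrane proton pump AHA1, which shares its membrane with the PIPs, between −0.11 and 0.06.

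Each of the 5 called differences kept its direction under the other settings and with each plate or array left out. The PIP2F call in GHsf : GWt passed in 10 of 12 other settings and in 14 of 14 leave-one-out fits, and that of PIP2B and RD28 in FHsf : FWt in 12 of 13 and 13 of 14. The PIP3 and PIP3B call in FHsf : FWt passed in 9 of 13 and 12 of 14, and the GAMMA-TIP call in FHsf : GHsf in 11 of 14 and 11 of 14. In each comparison the 14 fits include those that leave out a plate or array of a group not compared. There the fold change stays the same and only the spread can move, so these counts overstate how steady a call is. In the leave-one-out fits, all losses of the GAMMA-TIP call came from leaving out an array of FHsf or GHsf. The PIP2F call in FHsf : GHsf was the least steady, with 6 of 13 and 7 of 14. It was lost without array B3-2 or B5 of FHsf, without any 1 array of GHsf, and without plate A1 or B1 of GWt, with log2 fold changes of −1.80 to −2.60. Without array B4 of FHsf neither of the FHsf : FWt calls passed, at −1.01 for PIP2B and RD28 and −0.91 for PIP3 and PIP3B (limma p of 0.0152 and 0.0138). Without plate B2 of FWt the PIP3 and PIP3B value was −0.96 and no longer passed the limit on the fold change.

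**Figure D4:**
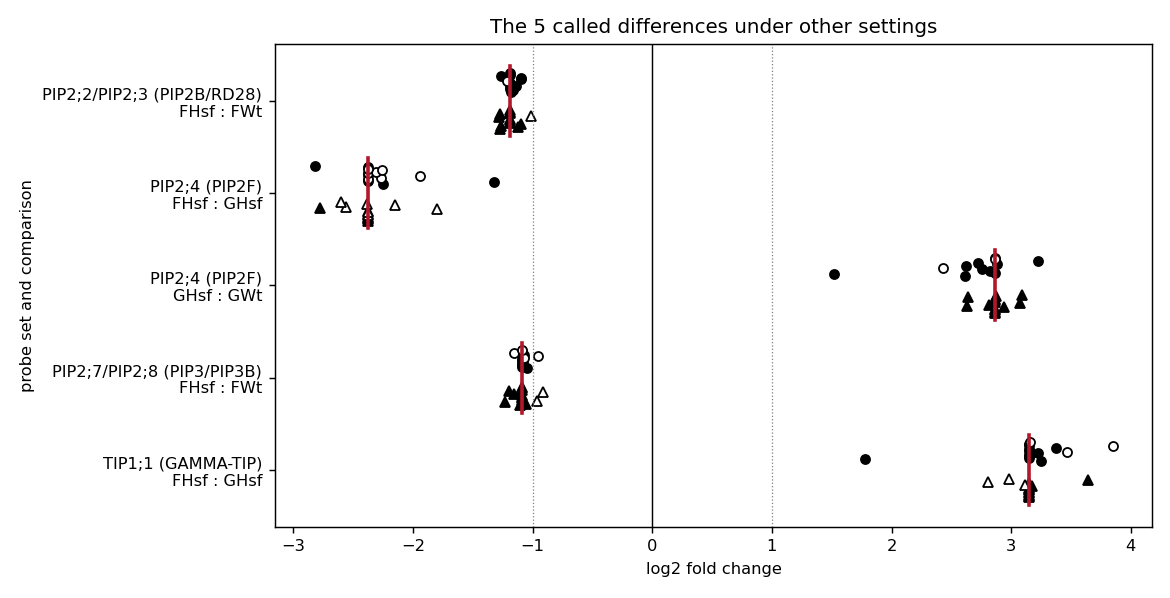
Log2 fold change (horizontal axis) of the 5 called aquaporin differences, 1 row each, in the fit described (red line), under other settings (circles) and with each plate or array left out (triangles). Filled symbols passed both limits, open symbols did not, and dotted lines mark a log2 fold change of 1 in size. No symbol crosses 0, and PIP2F in FHsf : GHsf has the most open symbols.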

How the data were processed

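RNA of callus cells was measured on Affymetrix ATH1 arrays, 16 in all. The authors deposited linear intensity values, MAS5 signals made with Affymetrix Expression Console and scaled to a common trimmed mean. The authors' deposited table of log2 fold changes and p-values holds their comparisons. It was used only for annotation and for its set of 22687 probe sets. After log2 transformation with no constant added, both arrays of plate A1 in each WT group were averaged, and lmFit and eBayes of limma 3.58.1 in R 4.3.3 were run on 14 plates and arrays in 4 groups, with Benjamini-Hochberg adjustment over all probe sets. The methods name limma with a Benjamini-Hochberg correction and a P-value limit of 0.01. Here that limit was applied to unadjusted p-values, with the adjusted p given beside, and 0 aquaporin probe sets pass it after adjustment. The fit was tested on simulated data with independent noise and with known changes only in probe sets over the median signal. That test does not cover dim members such as PIP2F, or effects shared by arrays. Exact permutation tests were two-sided. Tables and figures were made in Python 3.11 with pandas 2.3.3 and matplotlib 3.10.9. Symbols and second names were matched to RefSeq (35 of 35 loci). A probe set was counted for a locus with at least 10 matching probes.

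Members and lists were chosen with earlier results of these data known. Values in every plate are given for probe sets called in any comparison or the interaction, those past 1 in log2 fold change, up or down, at an unadjusted p below 0.05, and the brightest of each subfamily, with other members named to account for them. Alternatives covered scaling, offset, dim probe sets, repeat arrays, canister, array run, variance model, plate position as a block and each plate or array left out. Deviations of plates at the same position correlated at r of −0.0419 to 0.125 (7 pairs) and those of other positions at −0.103 to 0.109 (18 pairs), so positions were not treated as pairs. The number of arrays limits the precision.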

Additional observations from a re-analysis of the deposited data

Results flagged for a closer look

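Of 64 groups of 4 WT plates tested with Dixon's ratio, 4 held a plate that stood far from the other 3 of its group, and chance alone flags about 1 in 20 groups. PIP1B (PIP1;2) gave 15865 on plate B1 of FWt, where the other plates gave 11315 to 11752. PIP2A (PIP2;1) gave 43.9 on plate B1 of GWt, against 217 to 264 on the others. BETA-TIP (TIP3;2), a seed vacuole aquaporin, gave 96.2 on plate B1 of GWt, against 17.1 to 21.9. SIP1A (SIP1;1) gave 1532 on plate B1 of GWt, against 1987 to 2013. The plate B1 of FWt and the plate B1 of GWt are different plates that share a canister position, and 3 of the 4 values were of the GWt plate, higher than the others for BETA-TIP and lower for PIP2A and SIP1A. GAMMA-TIP (TIP1;1) and DELTA-TIP2 (TIP2;2) on plate B1 of GWt, at 11.7 and 7.16, were also below the other plates but did not pass the critical ratio. Groups of 3 HSFA2 KO arrays were not tested.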

How the results depend on the processing

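In FHsf : GHsf, where 2 aquaporin probe sets were called, 1 was called with probe sets over the median signal, single arrays, the GHsf B3 arrays averaged, BRIC as a term, array run as a term and an intensity trend, and 0 without second-run arrays. In GHsf : GWt, where 1 was called, 2 were called with log2(signal + 32), with single arrays and with array run as a term, and 0 with probe sets over the median signal. The fit of probe sets over the median signal holds 16 members and leaves out PIP2F. Its lower counts in FHsf : GHsf and GHsf : GWt follow from that. In FHsf : FWt, where 2 were called, 0 were called with WT plates of BRIC B only, and 1 with BRIC as a term and 1 without second-run arrays. In the interaction, where 0 were called, 1 was called with log2(signal + 32) and 1 without both GHsf B3 arrays. A like count can hold other members: without both GHsf B3 arrays the 2 calls in FHsf : GHsf were PIP1D and SIP1B, and the 1 call in GHsf : GWt was PIP1D, while with an intensity trend it was GAMMA-TIP. At an adjusted p under 0.05, 0 were called in every comparison. With each plate or array left out in turn, the counts ran from 0 to 2 in FHsf : GHsf, from 1 to 3 in GHsf : GWt, from 0 to 3 in FHsf : FWt and from 0 to 1 in the interaction, and stayed at 0 in FWt : GWt. With plate position as a replicate block, 2 were called in FHsf : GHsf, PIP2F (PIP2;4) and GAMMA-TIP3 (TIP1;3), while GAMMA-TIP (TIP1;1) was not (3.15, limma adjusted p = 0.646). A block for FWt : GWt and for the interaction gave 0 calls. None of the named values reversed a call. Fits with 1 sample left in a group assume that it varies like the other groups. The causes of the other changes were not tested. Members under the median signal have SDs around 1.5 on the log2 scale, so changes of 2-fold in them were within the spread. Genotype comparisons rest on 1 culture line each.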
